A study of Mus musculus with 28 samples.

Results

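Iron-responsive element (IRE) mRNAs are the transcripts whose translation or stability is set by the iron regulatory proteins (IRPs). A set of 7 mouse genes was followed here by name: the 5 best known IRE mRNAs, Fth1, Ftl1, Slc40a1, Tfrc and Slc11a2, and the genes of both IRPs, Aco1 and Ireb2. All 7 were among the 45513 genes counted in the 28 libraries of the series. Ribosome footprints, the mRNA fragments that a ribosome shields from nuclease, and total mRNA were sequenced from the same 14 cultures. MN1 cells, a clonal hybrid line of mouse spinal motor neurons and neuroblastoma at passages 10 to 12, transiently expressed GFP (n = 2 cultures), hTDP-43 (n = 2) or its mutant form hTDP-43 A315T (n = 2). Cortical neurons of embryonic day 16 mice on a C57BL/6J background were grown for 14 days in vitro from non-transgenic littermates (n = 2, numbered 2 and 3) or from hemizygous embryos carrying Prp-hTARDBP WT (n = 3) or Prp-hTARDBP A315T (n = 3), transgenes driven by the prion promoter. The A315T form of the RNA-binding protein TDP-43 is linked to amyotrophic lateral sclerosis. All neuron cultures received 0.5 µM cytosine arabinoside on day 4 to remove dividing cells, and all MN1 cultures received 100 µg/mL cycloheximide for 3 min before lysis, which the neurons did not. Cell type, medium and drug treatment therefore cannot be told apart. Nothing in the labels says which cultures came from separate embryos, so the p-values measure the spread between these cultures.

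When cytosolic iron is low, the IRPs bind a short hairpin, the IRE. In the 5′ untranslated region (UTR) of ferritin and ferroportin mRNAs a bound IRP keeps the small ribosomal subunit off the message, so little iron store or exporter is made. In the 3′ UTR of transferrin receptor mRNA a bound IRP shields the message from cleavage, so more receptor is made and more iron is taken up. Aco1 (IRP1) turns into the cytosolic aconitase when it carries an iron-sulfur cluster, and Ireb2 (IRP2) is degraded when iron is plentiful. Neurons take up transferrin-bound iron through the receptor and store it in ferritin.

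The hairpins of the 5 IRE mRNAs are printed here to show which genes have the element before the coding sequence and which behind it. They were found in the GRCm38 transcript models as an unpaired C, 5 bases, a 6-base loop that starts with CAGTG and ends in A, C or T, and 5 further bases of which at least 4 pair with the first arm, read on the transcript strand only. G with T (U in the RNA) counted as a pair, which the Slc11a2 match needs. Capitals mark the bulged C and the loop, and 6 bases flank each side.
Fth1 5′ UTR, chr19:9982732-9982760 (+): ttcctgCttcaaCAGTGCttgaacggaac
Ftl1 5′ UTR, chr7:45459779-45459807 (−): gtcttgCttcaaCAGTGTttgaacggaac
Slc40a1 5′ UTR, chr1:45925465-45925493 (−): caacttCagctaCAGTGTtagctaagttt
Slc11a2 3′ UTR, chr15:100395153-100395181 (−): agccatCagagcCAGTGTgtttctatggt
Tfrc 3′ UTR, chr16:32631219-32631247 (+): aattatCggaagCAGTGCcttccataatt
Tfrc 3′ UTR, chr16:32631598-32631626 (+): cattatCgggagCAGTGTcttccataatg
Tfrc 3′ UTR, chr16:32631663-32631691 (+): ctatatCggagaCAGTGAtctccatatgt
Tfrc 3′ UTR, chr16:32631710-32631738 (+): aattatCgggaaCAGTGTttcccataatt
The arms beside the loop of Fth1 and Ftl1 were identical, and their loops ended in C and T. All 5 upper stem pairs were present in each of these hairpins except that of Slc11a2, which had 4. No such hairpin was found in Ireb2 (chr9:54863755-54912534, plus strand) or Aco1 (chr4:40143081-40198338, plus strand). The pattern is rare before coding sequences, with 0.39% of 19466 genes holding it in a 5′ UTR, and less rare behind them, with 2.22% of 20476 genes holding it in a 3′ UTR, so a match in a 3′ UTR is only a description. These shares come from a single principal transcript per gene. The genes named here were searched over all their protein-coding transcripts, which is a wider search.

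The 7 genes differ in how much of the transcript is coding, which matters because footprints fall on coding sequence while total mRNA fragments fall on the whole transcript. Coding bases made up 58.8% of the Fth1 transcript, 56.7% of Ftl1, 50.7% of Slc40a1, 46.8% of Tfrc, 38.1% of Slc11a2, 50.1% of Ireb2 and 69.6% of Aco1. The ferritin genes also have processed pseudogenes, and only reads with a single place in the genome were counted. Of all 30-base windows of the Ftl1 transcript, 82.5% also occur elsewhere in the genome, against 21.2% for Fth1 and at most 1.48% for the other 5 genes. Within the coding sequence, 86.3% of Ftl1 windows and 22.7% of Fth1 windows occur elsewhere. Reads from such windows were not counted in either library type, since total mRNA fragments and footprints were cut from gels between the same size markers and are of similar length. How far the loss differs between them was not tested.

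Total counts per library ranged from 332370 to 1219222 for MN1 footprints, from 1328528 to 2988339 for MN1 total mRNA, from 166064 to 2528820 for neuron footprints and from 600385 to 6969578 for neuron total mRNA. A pair of neuron total mRNA libraries stood apart. Lars2 took 18.8% of the counts in non-transgenic replicate 3 (95% exact binomial interval 18.8% to 18.9%) and 14.1% in hTDP-43 replicate 3 (14.1% to 14.2%), against 3.09% to 7.49% in the other 6 neuron total mRNA libraries. Intervals cover counting error only. Neuron markers summed to between 4528 and 5221 CPM (counts per 1000000 of a library size that was adjusted by a normalization factor for each library, so not a plain share of its counts) in neuron total mRNA with 8 of 8 markers detected, and to between 399 and 513 CPM in MN1 total mRNA, where motor neuron markers summed to between 48.5 and 69.1 CPM. Astrocyte markers were present in neuron total mRNA (41.7 to 105 CPM, 5 of 5 detected) and near absent in MN1 total mRNA (at most 2.13 CPM). Oligodendrocyte markers summed to 59.1 to 106 CPM and fibroblast markers to 3.49 to 28.8 CPM in neuron total mRNA, and microglia markers reached at most 3.78 CPM there. In bulk samples, fewer cells of a type and less RNA per cell cannot be told apart, and the part of glial RNA in the results below was not tested.

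Ferritin heavy chain mRNA had the highest counted level of the members in both cell types. Per kilobase of exon, the mean level in MN1 total mRNA was 1078 CPM per kb for Fth1 and 178 for Ftl1, with no overlap between cultures. The Ftl1 level is an undercount, since reads from the 82.5% of its windows that occur elsewhere were left out, against 21.2% for Fth1, so the gap between the ferritins does not measure that between their mRNAs. Tfrc followed at 23.5 CPM per kb, then Slc11a2 at 16.3, Ireb2 at 11.8 and Aco1 at 8.78, and each of these 4 overlapped its neighbour in that order. Slc40a1 was lowest at 0.744 CPM per kb. In neuron total mRNA the order began with Fth1 at 1131 CPM per kb and Ftl1 at 63.5, and ended with Slc40a1 at 0.224. Between them Ireb2 (12.5), Aco1 (11.3), Slc11a2 (8.76) and Tfrc (8.34) overlapped one another. Among footprints Fth1 was again first, at 272 CPM per kb in MN1 cells and 361 in neurons. The divisor counts every annotated exon base of a gene, 9000 for Slc40a1, 1340 for Ftl1 and 866 for Fth1. Their transcript models have 3370, 968 and 929 bases, so the divisor lowers Slc40a1 and Ftl1 relative to Fth1. It was used for footprints too, although these fall on coding sequence. The order with other divisors was not tested.

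**Figure D1:**
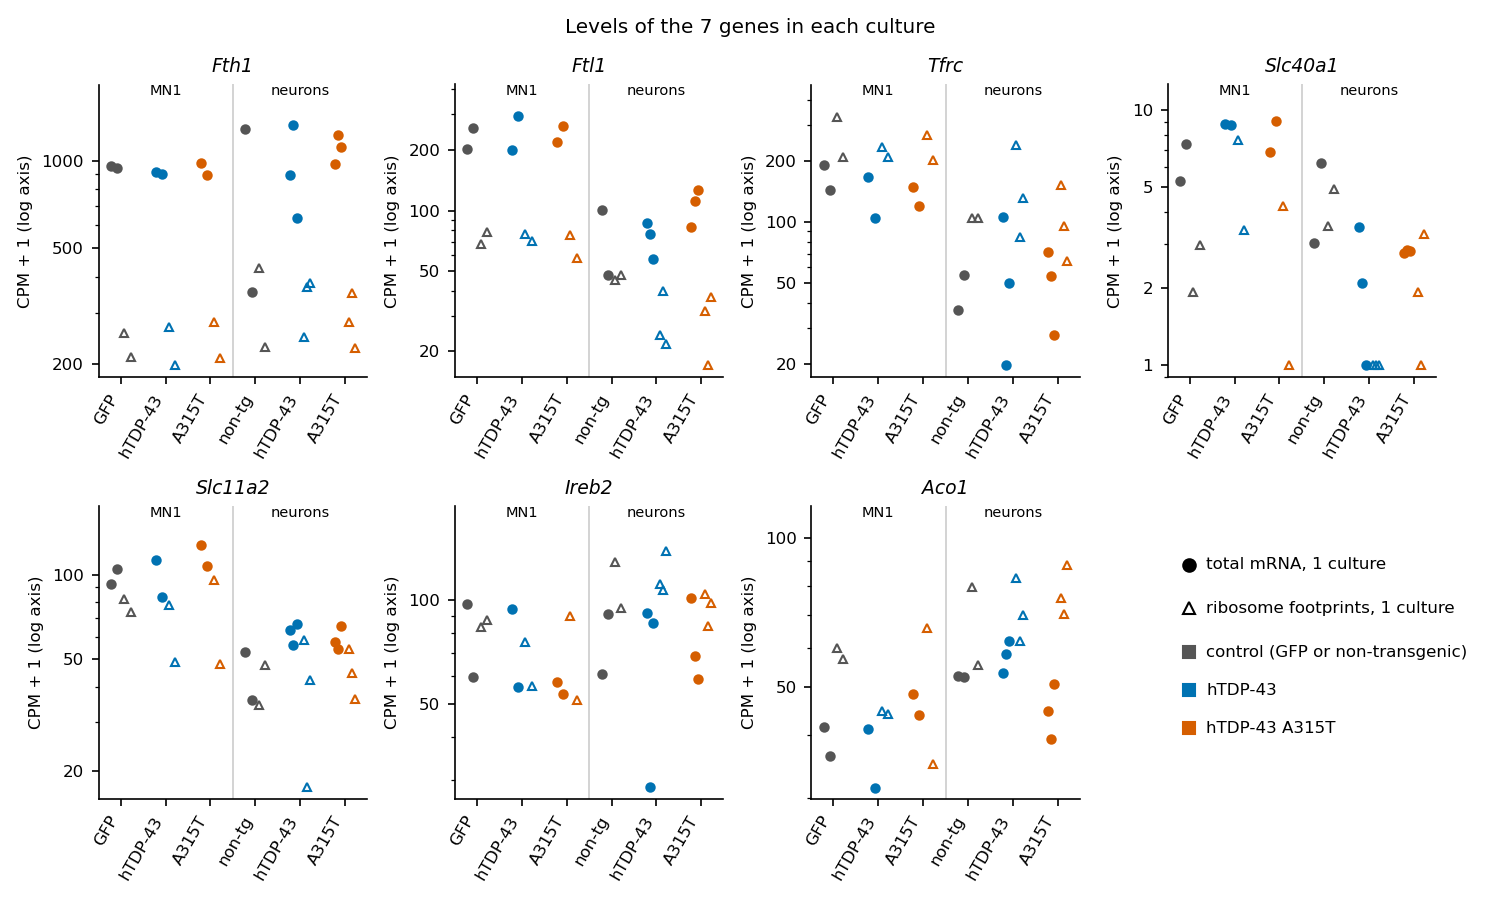
Level of each gene in each culture, as CPM plus 1 on a log axis, in total mRNA (filled circles) and ribosome footprints (open triangles). Colours give the protein group. Fth1 and Ftl1 footprints lie below their total mRNA in every MN1 culture, and Tfrc footprints lie above its total mRNA in every culture.

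The first comparison asked how footprints stood against total mRNA of the same gene within a cell type, which is the ratio usually called translational efficiency. In fits over all cultures of a cell type, the footprint-to-total ratio of both ferritin mRNAs was far below that of most genes. That of transferrin receptor mRNA was above that of most genes. Both held in MN1 cells and in neurons, though in some single neuron cultures the ferritins lay nearer to the middle. In MN1 cells 4 members were lower in footprints (Fth1, Ftl1, Slc40a1, Slc11a2), 2 were higher (Tfrc, Aco1) and Ireb2 did not pass the threshold. The background was high: 59.5% of all 10212 genes tested passed in either direction in MN1 cells, 30.8% lower and 28.7% higher. With so high a background the size of each difference, and the share of genes with a lower value, are given below beside the call. In neurons 2 members were lower (Fth1, Ftl1), 3 were higher (Tfrc, Ireb2, Aco1), Slc11a2 did not pass and Slc40a1 had too few counts to be tested, beside a background of 56.3% of 11654 genes, 28.3% lower and 28% higher. The median log2 difference over the members tested was −0.38 in MN1 cells and 0.14 in neurons, and over all genes it was −0.038 and 0.011.

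Fth1 encodes the ferritin heavy chain, the ferroxidase subunit of the iron store. In MN1 cells its total mRNA ranged from 897 CPM (median 930) to 983 CPM over the 6 cultures, and its footprints from 197 CPM (median 231) to 278 CPM. The ranges did not overlap, and the ratio was between 0.218 and 0.291 in every culture. The fitted log2 difference was −1.84 (SE 0.088, adjusted p = 2.59e-11 by the quasi-likelihood test of edgeR), which is 3.58-fold lower, and 1.87% of all genes tested had a lower value. In single MN1 cultures between 0.48% and 1.72% of genes with at least 10 counts in both libraries had a lower ratio than Fth1.

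In neurons Fth1 varied more. Its total mRNA ranged from 353 CPM (median 1047) to 1337 CPM and its footprints from 226 CPM (median 314) to 428 CPM. The lowest total mRNA values, 353 and 636 CPM, were those of the same cultures whose total mRNA libraries held the most Lars2 counts, and their ratios were 0.645 and 0.595 where the other 6 neuron cultures lay between 0.202 and 0.332. The fitted log2 difference was −1.62 (SE 0.234, adjusted p = 8.7e-06), 3.06-fold lower, with 5.4% of genes lower. Without these cultures it was −1.90 (SE 0.136, adjusted p = 3.14e-09). In single neuron cultures between 0.924% and 23.8% of genes with at least 10 counts in both libraries had a lower ratio than Fth1. The highest shares, 23.8% and 18.1%, were in non-transgenic replicate 3 and hTDP-43 replicate 3.

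Ftl1 encodes the ferritin light chain, which helps the iron core form. In MN1 cells its total mRNA ranged from 199 CPM (median 238) to 292 CPM and its footprints from 56.8 CPM (median 72) to 77.6 CPM. Again the ranges did not overlap. The log2 difference was −1.60 (SE 0.119, adjusted p = 7.46e-09), with 2.97% of genes lower. In neurons the counts were low, with 3 to 66 footprint counts per library, and the ratio ran from 0.146 (median 0.371) to 0.999. The highest ratio was in non-transgenic replicate 3, where footprints and total mRNA were level at 46.8 CPM each. The fitted difference in neurons was −1.40 (SE 0.22, adjusted p = 2.3e-05), and 7.53% of genes were lower. In the 5 neuron cultures with enough counts, between 2.08% and 45% of genes had a lower ratio than Ftl1, the highest share in non-transgenic replicate 3. Annotated genes with a near-identical stretch numbered 1 for Fth1 and 18 for Ftl1, the latter including short microRNA genes without counts. Adding their counts added 0.083% and 2.8% to the gene's own counts and changed none of these calls. Reads shared with these genes were counted for neither, so this small addition could not restore them and does not test their loss.

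Slc40a1 encodes ferroportin, the only known iron exporter of mammalian cells. It was barely detected, with 8 to 20 counts in each MN1 total mRNA library and 0 to 5 in each MN1 footprint library. Its footprints were 0.939, 1.96, 6.63, 2.4, 3.2 and 0 CPM in the GFP, hTDP-43 and A315T cultures in that order, against 4.27 to 8.06 CPM in total mRNA. The fitted log2 difference was −1.20 (SE 0.413, adjusted p = 0.0186), and 7.73% of genes were lower. The call was lost when GFP replicate 1, GFP replicate 2 or A315T replicate 2 was left out (adjusted p 0.0509, 0.0588 and 0.0616). In neurons it had at most 15 counts in total mRNA and at most 3 in footprints, with 0 footprint counts in all 3 hTDP-43 cultures, and it did not pass the count filter of the neuron fit. A count of 0 allowed up to 20.6 CPM in the shallowest of these libraries, hTDP-43 replicate 3.

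Tfrc encodes the transferrin receptor, which carries transferrin-bound iron into the cell. In MN1 cells total mRNA ranged from 104 CPM (median 145) to 191 CPM and footprints from 201 CPM (median 221) to 330 CPM. Every MN1 culture had a ratio above 1, from 1.41 to 2.01. The log2 difference was 0.89 (SE 0.131, adjusted p = 1.84e-05), 1.85-fold higher, and 88.8% of genes had a lower value. In neurons the ratio lay between 1.77 (median 2.32) and 4.43, again above 1 in every culture. The log2 difference was 1.27 (SE 0.276, adjusted p = 0.000663), 2.4-fold higher, with 94.9% of genes lower. Tfrc was thus on the other side of the distribution from the ferritins. Less of its transcript is coding, and the part of the coding share in these ratios was not tested.

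Slc11a2 encodes the divalent metal transporter DMT1, which moves iron out of endosomes. Transcripts with and without the 3′ hairpin were counted together. In MN1 cells total mRNA ranged from 82.3 CPM (median 105) to 126 CPM and footprints from 47.1 CPM (median 74.8) to 94.5 CPM, and the ranges overlapped. The ratio ranged from 0.444 (median 0.693) to 0.88, below 1 in every culture. The log2 difference was −0.38 (SE 0.133, adjusted p = 0.0196), with 33.4% of genes lower, and the call was lost without GFP replicate 2 (adjusted p = 0.0533). In neurons the ratio ran from 0.302 to 1.34 and the difference of −0.30 (SE 0.162, adjusted p = 0.121) did not pass. It passed with DESeq2 (−0.34, adjusted p = 0.048) and without non-transgenic replicate 3 (−0.44, adjusted p = 0.0166).

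The IRP genes lay nearer to the middle of the distribution than the ferritins and Tfrc, as Slc11a2 did. Aco1 was higher in footprints in both cell types, with a log2 difference of 0.51 (SE 0.138, adjusted p = 0.00405) in MN1 cells and 0.61 (SE 0.124, adjusted p = 0.000365) in neurons. Its footprints ranged from 34.1 CPM (median 49.9) to 64.9 CPM in MN1 cells and from 54.6 CPM (median 71.9) to 87.1 CPM in neurons. The ratio of Aco1 ranged from 0.793 (median 1.39) to 1.58 in MN1 cells and from 1.06 (median 1.54) to 1.81 in neurons. In MN1 cells 1 culture, A315T replicate 2, lay below a ratio of 1, and in neurons none did. Ireb2 differed by 0.28 (SE 0.167, adjusted p = 0.16) in MN1 cells, where 65.7% of genes were lower, and by 0.58 (SE 0.19, adjusted p = 0.014) in neurons, where 75.6% were lower. The neuron call for Ireb2 was lost without non-transgenic replicate 2, hTDP-43 replicate 3 or A315T replicate 3 (adjusted p 0.0774, 0.0624 and 0.0514). Its ratio in neurons was widely spread, from 1.03 (median 1.43) to 3.82, and the highest value came from hTDP-43 replicate 2, whose total mRNA level of 27.6 CPM was the lowest of all.

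**Figure D2:**
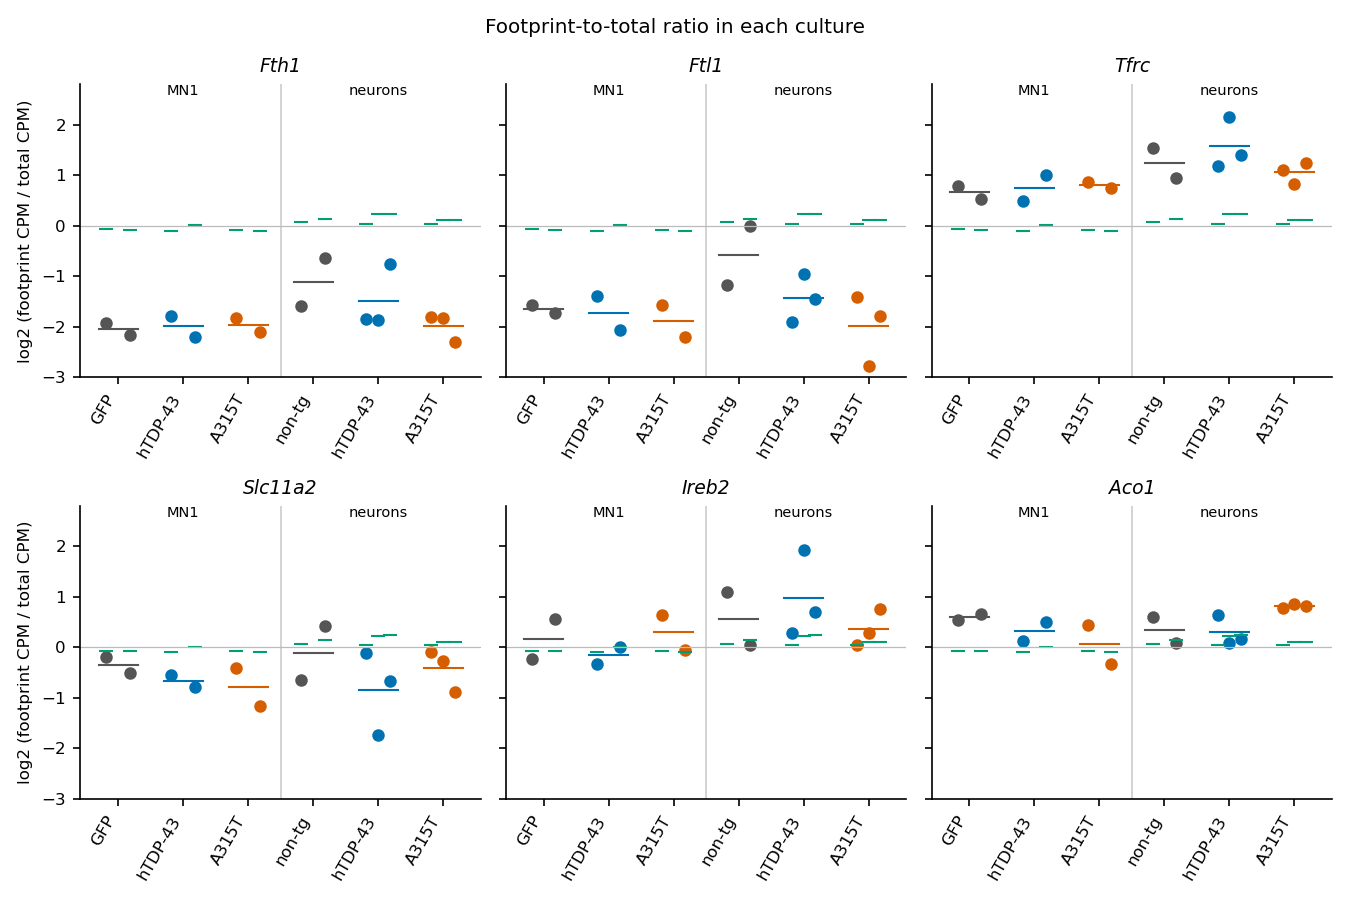
Log2 ratio of footprint to total mRNA CPM in each culture for the 6 members with enough counts. Dots are cultures, coloured bars are group means, and green dashes are the median of all genes with at least 10 counts in both libraries of that culture. Fth1 and Ftl1 lie below the dashes in every culture and Tfrc above them.

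The spread of the ratio between cultures differed among the members. In MN1 cells the SD of the log2 ratio over 6 cultures was 0.18 for Fth1 and 0.2 for Tfrc, smaller than the median SD of 0.27 over the 5672 genes with at least 10 counts in every library. It was 0.32 for Ftl1, 0.34 for Slc11a2, 0.37 for Aco1 and 0.41 for Ireb2. In neurons it was 0.58 for Fth1, 0.41 for Tfrc, 0.64 for Ireb2 and 0.33 for Aco1, against a median of 0.33 over 3151 genes, and 89.8% of genes had a smaller SD than Fth1 and 93.3% a smaller one than Ireb2. The highest Fth1 ratios, 0.645 and 0.595, were those of the 2 cultures with the highest Lars2 share.

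**Figure D3:**
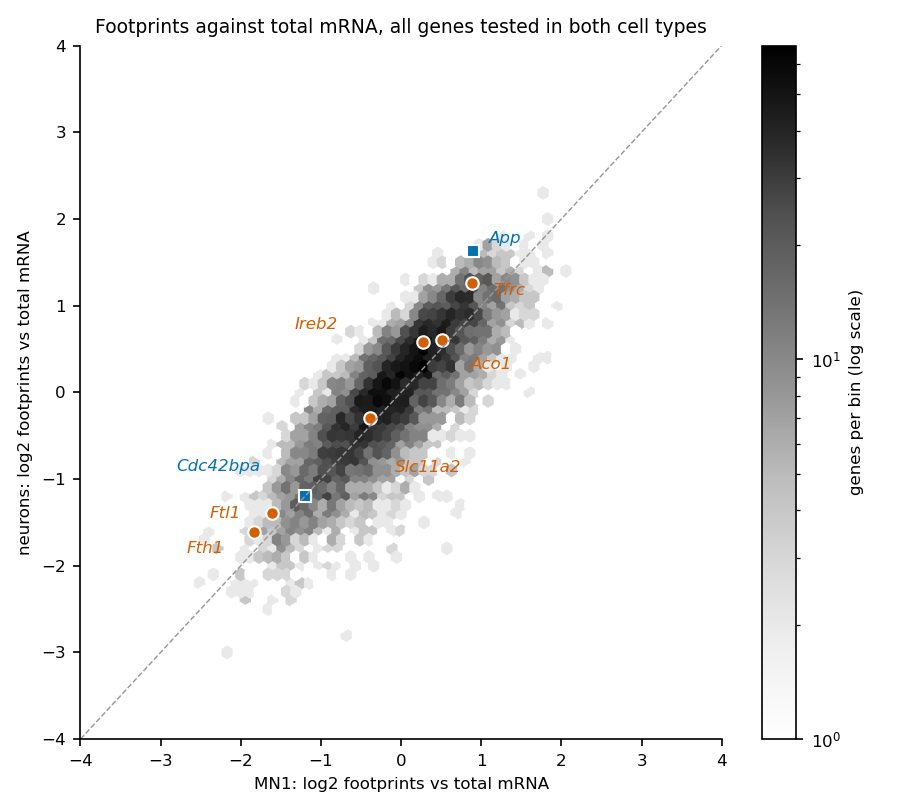
Fitted log2 difference between footprints and total mRNA in MN1 cells (horizontal) and neurons (vertical) for the 9230 genes tested in both, as bins shaded by the number of genes on a log scale. Members are orange circles and other reported IRE mRNAs blue squares, the dashed line marks equal values, and 78 genes lie outside the axes. Fth1 and Ftl1 sit at the low end of both axes and Tfrc near the high end.

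The second comparison set neurons against MN1 cells. Of the members, 4 were lower in neuron total mRNA (Ftl1, Tfrc, Slc40a1, Slc11a2), 1 was higher (Aco1), and Fth1 and Ireb2 did not pass. Most genes differed between these cell types: 81% of 12801 genes passed, 38.4% lower and 42.6% higher, so 5 of 7 members is no more than the background. Among footprints 3 of 6 were lower (Ftl1, Tfrc, Slc11a2) and 2 higher (Ireb2, Aco1), beside 82.6% of 10698 genes in either direction, 39.9% lower and 42.7% higher. The median log2 difference over the members was −1.01 in total mRNA and −0.34 in footprints, against 0.093 and 0.051 over all genes.

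The ferritin subunits parted between the cell types. Ftl1 total mRNA was 46.8 CPM (median 83.6) to 125 CPM in neurons and 199 to 292 CPM in MN1 cells, with no overlap, and the log2 difference was −1.58 (SE 0.181, adjusted p = 1.25e-06). Its footprints did not overlap either, at 16.1 to 46.8 CPM against 56.8 to 77.6 CPM (log2 difference −1.32, SE 0.163, adjusted p = 1.46e-07). Fth1 total mRNA overlapped, with a log2 difference of −0.04 (SE 0.243, interval −0.51 to 0.44, adjusted p = 0.898). Fth1 turned on single cultures. Without non-transgenic replicate 2 it was lower in neuron total mRNA by 0.46 (adjusted p = 0.0167), whereas without the 2 cultures of highest Lars2 share it was higher, by 0.33 in total mRNA (SE 0.113, adjusted p = 0.0135) and by 0.35 in footprints (SE 0.149, adjusted p = 0.0384). Within a library, Fth1 had 3.09 to 4.79 counts for each Ftl1 count in MN1 total mRNA (median 4.09) and 7.55 to 17.8 in neuron total mRNA (median 11.2). These are ratios of counted reads, raised by the uncounted Ftl1 reads in both cell types.

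Tfrc, Slc11a2 and Slc40a1 were lower in neuron total mRNA, and Tfrc and Slc11a2 also in neuron footprints. Tfrc total mRNA was 18.8 CPM (median 51.3) to 105 CPM in neurons, with only hTDP-43 replicate 1, at 105 CPM, as high as the lowest MN1 culture. The log2 difference was −1.55 (SE 0.293, adjusted p = 0.000199), and −1.15 (SE 0.184, adjusted p = 6.36e-06) in footprints. Slc11a2 total mRNA was 35 to 65.8 CPM in neurons and 82.3 to 126 CPM in MN1 cells, with no overlap (log2 difference −1.01, SE 0.13, adjusted p = 4.31e-06), and its footprints were lower by 0.90 on the log2 scale (SE 0.19, adjusted p = 0.000184). Slc40a1 total mRNA was 0 to 5.2 CPM against 4.27 to 8.06 CPM (log2 difference −1.60, SE 0.33, adjusted p = 0.000418). MN1 cells divide and neurons do not, and the 4 cycling markers summed to 359 to 559 CPM in MN1 total mRNA and to 2.59 to 7.05 CPM in neuron total mRNA. Their part in these differences was not tested.

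Aco1 was slightly higher in neurons in both library types, and Ireb2 passed in footprints. Ireb2 total mRNA was 27.6 CPM (median 76.2) to 100 CPM in neurons and 52.4 CPM (median 57.8) to 96.6 CPM in MN1 cells, and Aco1 total mRNA was 38.3 CPM (median 51.7) to 61.1 CPM against 30.4 CPM (median 40.3) to 47.4 CPM. Both genes overlapped between the cell types. Ireb2 total mRNA differed by 0.03 on the log2 scale (adjusted p = 0.915), and its footprints were higher by 0.35 (SE 0.135, adjusted p = 0.0204). Aco1 was higher by 0.29 in total mRNA (SE 0.125, adjusted p = 0.0467) and by 0.35 in footprints (SE 0.15, adjusted p = 0.0351). These calls were close to the threshold. With DESeq2 neither footprint call passed (adjusted p 0.0931 for Ireb2 and 0.16 for Aco1). The footprint call for Ireb2 was also lost without MN1 hTDP-43 replicate 2 or neuron non-transgenic replicate 2 (adjusted p 0.0515 and 0.0777), and that for Aco1 without MN1 hTDP-43 replicate 1, MN1 A315T replicate 2, neuron hTDP-43 replicate 1 or neuron non-transgenic replicate 2 (adjusted p 0.0792, 0.0509, 0.122 and 0.146). The total mRNA call for Aco1 was lost in 10 of 20 alternatives, of which 9 left out a single culture.

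**Figure D4:**
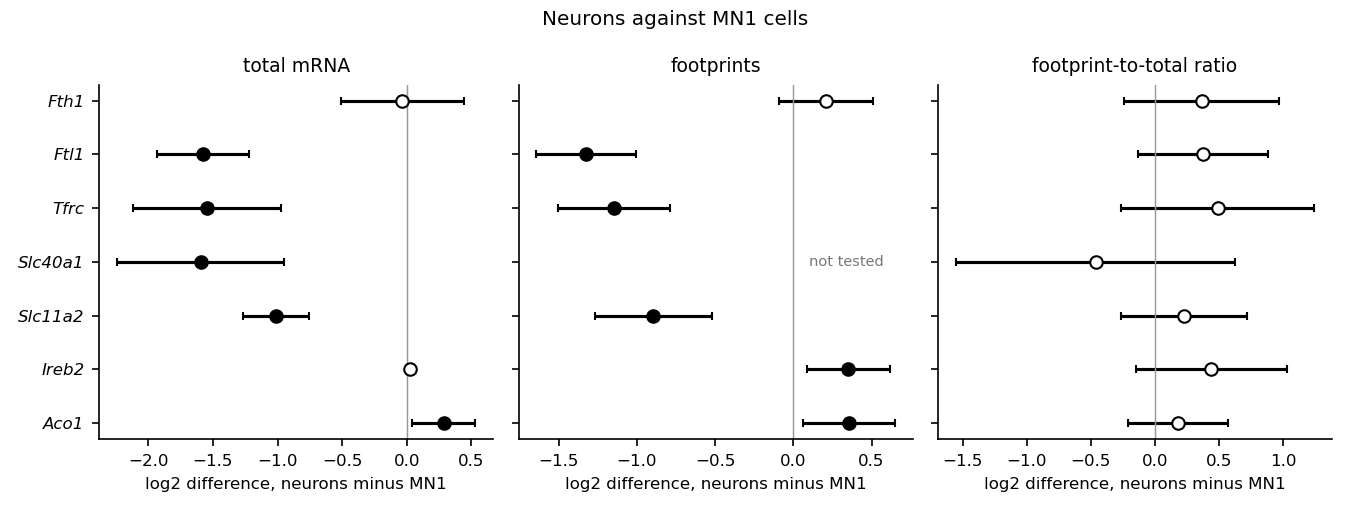
Log2 difference of neurons minus MN1 cells in total mRNA, footprints and their ratio, with 95% intervals from the SE as bars. Filled points passed an adjusted p of 0.05. No bar is drawn where the p-value was above 0.9. Ftl1, Tfrc and Slc11a2 lie below 0 in total mRNA and in footprints, and no member passed for the ratio.

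The footprint-to-total ratio itself did not differ detectably between the cell types for any member. Of 7 members tested 0 passed with edgeR and 0 at an unadjusted p below 0.05, and 0 passed with DESeq2, where 8.07% of 12358 genes passed with edgeR, 5.94% with a higher and 2.13% with a lower ratio in neurons. The differences, neurons minus MN1, were 0.36 for Fth1 (interval −0.24 to 0.97), 0.38 for Ftl1 (−0.13 to 0.88), 0.49 for Tfrc (−0.26 to 1.24), 0.23 for Slc11a2 (−0.26 to 0.72), 0.44 for Ireb2 (−0.15 to 1.03) and 0.18 for Aco1 (−0.21 to 0.57). Slc40a1 passed the count filter of the fit over all 28 libraries, where its value was −0.46 (−1.55 to 0.63), from few counts, and changed sign with DESeq2. The median of all genes was 0.2. Aco1 also changed sign, to −0.036 with DESeq2 and −0.044 with RLE factors, as did Aco1 and Slc11a2 each without 1 of the cultures. The intervals are wide, and reach a log2 difference of 0.97 for Fth1 and 1.24 for Tfrc.

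The third comparison, the one the experiment was built for, asked whether hTDP-43 or hTDP-43 A315T changed these genes. No member passed the threshold in any of the 18 comparisons between protein groups. Of 114 tests of members, 0 passed with edgeR, 0 with DESeq2, and 6 had an unadjusted p below 0.05. Few genes of any kind passed: in MN1 cells the percent called was 0.0115 in footprints of A315T against GFP, 0.00965 in total mRNA of A315T against GFP, 0.01 in total mRNA of hTDP-43 against GFP and 0 in the other 6 comparisons, and in neurons it was 0 in all 9. Unadjusted p-values below 0.05 made up between 0.372% and 5.29% of all genes tested in these comparisons. In simulated counts, a true log2 change of 1 was recovered for 35.7% of changed genes in MN1 footprints of A315T against GFP. It was recovered for 6.19% in neuron total mRNA of A315T against non-transgenic and 5.1% in the neuron ratio of A315T against hTDP-43. For a change of 2 the shares were 90.6%, 68.4% and 63.6%. The absence of a call therefore does not show that a gene was unchanged.

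In MN1 total mRNA, A315T against GFP, the result depended on whether the culture date was taken as a block. The total mRNA libraries of the same replicate number share a date in the labels. The date of the GFP replicate 1 footprint library has the same day and month as its partners but another year, and it was kept in the block. Tfrc total mRNA was 191 and 142 CPM with GFP, 166 and 104 CPM with hTDP-43 and 148 and 119 CPM with A315T, in replicates 1 and 2. Replicate 1 was higher than replicate 2 in each group. Ireb2 total mRNA was 96.6 and 58.8 CPM with GFP, 93.2 and 54.9 CPM with hTDP-43 and 56.8 and 52.4 CPM with A315T. The A315T values were the lowest in each replicate and did not overlap those of GFP. The share of all genes that separate in this way is not given here. Without a block the log2 differences were −0.38 for Tfrc (SE 0.182, adjusted p = 0.849) and −0.57 for Ireb2 (SE 0.247, adjusted p = 0.849). With the block they were −0.39 (SE 0.103, adjusted p = 0.0344) and −0.57 (SE 0.154, adjusted p = 0.0381), and both genes passed, where 2.73% of 10361 genes passed in either direction and 1.68% lower. In footprints neither gene passed. Without a block Tfrc differed by −0.20 (SE 0.227) and Ireb2 by −0.24 (SE 0.235) in MN1 footprints of A315T against GFP, and with the block 0 of 6 members passed there, beside 0.624% of all genes.

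In neuron footprints of hTDP-43 against non-transgenic cultures, Ftl1 had the lowest value of the members and Tfrc the highest. Ftl1 footprints were 44.3 and 46.8 CPM in non-transgenic neurons, 23, 38.9 and 20.6 CPM in hTDP-43 neurons and 30.6, 16.1 and 36.2 CPM in A315T neurons. Both non-transgenic cultures were above all 6 transgenic cultures, with no share of all genes to set this against. The log2 differences from non-transgenic neurons were −0.87 for hTDP-43 (SE 0.317, adjusted p = 0.78) and −0.63 for A315T (SE 0.294, adjusted p = 1), and those values rest on as few as 3 counts in hTDP-43 replicate 3. Tfrc footprints were 104 and 103 CPM in non-transgenic neurons, 238, 83.3 and 131 CPM in hTDP-43 neurons and 151, 94.5 and 63.3 CPM in A315T neurons. They were highest in hTDP-43 replicate 1, and the groups overlapped. The log2 difference of hTDP-43 from non-transgenic neurons was 0.79 (SE 0.27, adjusted p = 0.724).

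The ratio of the ferritins in neurons differed widely between the non-transgenic cultures. The footprint-to-total ratio of Fth1 was 0.332 and 0.645 in non-transgenic neurons, 0.276, 0.274 and 0.595 in hTDP-43 neurons and 0.285, 0.284 and 0.202 in A315T neurons. All A315T values lay below both non-transgenic values, a separation of few cultures whose share over all genes is not given here. The log2 difference in ratio was −0.66 (SE 0.609, adjusted p = 1) for Fth1 and −1.16 (SE 0.508, adjusted p = 1) for Ftl1. In total mRNA, leaving out non-transgenic replicate 2 left replicate 3, the library with the most Lars2 counts, as the only control, and Fth1 (log2 difference 1.67, adjusted p = 0.00262) and Ftl1 (1.19, adjusted p = 0.0311) then passed as higher in A315T neurons. With the single control taken from replicate 2 neither passed, and Fth1 ran from −0.23 to 1.67 over all alternatives.

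**Figure D5:**
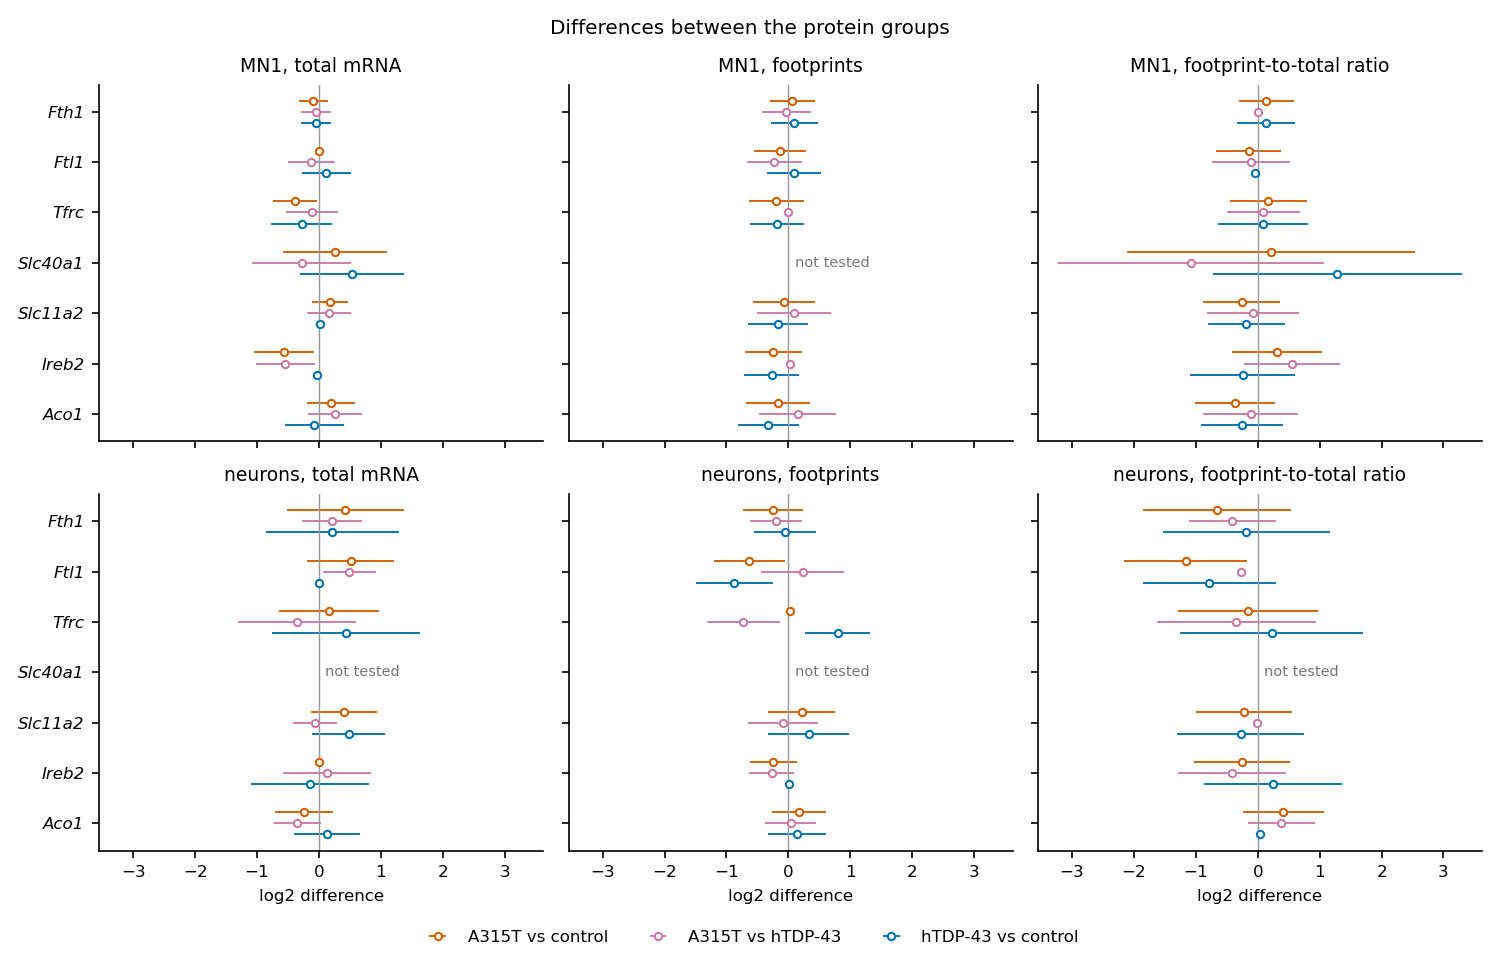
Log2 difference between protein groups for each member in total mRNA, footprints and their ratio, in MN1 cells (upper row, control GFP) and neurons (lower row, control non-transgenic), with 95% intervals from the SE as bars. Orange is A315T against control, pink A315T against hTDP-43 and blue hTDP-43 against control, and no bar is drawn where the p-value was above 0.9. No member passed an adjusted p of 0.05, and the bars of Fth1 are wider in neurons than in MN1 cells.

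Other mRNAs with a reported IRE did not share a direction. The hairpin pattern was found in Alas2 (5′ UTR) and Cdc14a (3′ UTR), but not in App, Cdc42bpa or Epas1. The list thus mixes positions of the element, and a shared direction need not follow. App, the amyloid precursor protein, was higher in footprints than in total mRNA, by 0.89 (SE 0.083, adjusted p = 9.23e-08) in MN1 cells and by 1.63 (SE 0.093, adjusted p = 2.58e-10) in neurons. Cdc42bpa, a kinase that binds CDC42, was lower by 1.20 in MN1 cells (SE 0.194, adjusted p = 4.65e-05) and by 1.20 in neurons (SE 0.168, adjusted p = 6.27e-06). Epas1, the hypoxia factor HIF-2α, was lower by 1.04 in neurons (SE 0.319, adjusted p = 0.00916) and was not tested in MN1 cells. Cdc14a, a phosphatase with the pattern in its 3′ UTR, differed by 0.01 (adjusted p = 0.981) in MN1 cells, and Alas2, the erythroid heme synthesis enzyme, reached at most 6.15 CPM. Of these 5 genes, 1 of 3 tested was higher and 1 lower in MN1 cells, and 1 of 3 was higher and 2 lower in neurons.

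Of 56 other genes of iron handling, 44 were tested for footprints against total mRNA in MN1 cells, with 20 higher, 9 lower and a median of 0.36, and 45 in neurons, with 18 higher, 6 lower and a median of 0.37. Over all genes 28.7% were higher and 30.8% lower in MN1 cells, and 28% and 28.3% in neurons. The lowest in both cell types were Slc25a37 (mitoferrin 1, the mitochondrial iron importer), at −1.81 (SE 0.177) and −2.54 (SE 0.226), Slc48a1, a heme transporter, at −1.34 and −1.22, and the protease Furin at −1.16 and −1.07. The highest in MN1 cells were Steap1 (1.56), Hmox2 (1.3), a heme oxygenase, and Blvrb (1.21), a biliverdin reductase, and in neurons Steap1 (3.33), Nfe2l2 (2.12), the oxidative stress factor NRF2, and Hif1a (1.27). Steap1 had at most 14 counts in a neuron total mRNA library. Fth1 at −1.84 in MN1 cells was about level with Slc25a37. In the comparison of neurons with MN1 cells, 31 of the 45 tested were lower in neuron total mRNA and 5 higher (median −0.81), and 27 of 42 lower and 4 higher in footprints (median −0.75). Over all genes 38.4% were lower and 42.6% higher in total mRNA, and 39.9% and 42.7% in footprints, so the number called in either direction is near the background. The lowest in total mRNA were Hfe (−3.70), a partner of the transferrin receptor, Nfe2l2 (−3.47) and Steap1 (−3.19), and the highest Steap2 (3.78), Uros (1.22) and Lyrm4 (0.73). In footprints the heme synthesis enzyme Alad (−2.88), the iron-sulfur assembly factor Nubp2 (−2.35) and the heme oxygenase Hmox1 (−2.32) were lowest, and Uros (1.63), Bach1 (1.11) and Mcoln1 (0.83) highest. None of these genes passed between protein groups without a block, with 30 to 44 of 56 tested in each comparison. With the block, Slc48a1 (0.38, SE 0.101, adjusted p = 0.0364) and Furin (0.34, SE 0.095, adjusted p = 0.0487) were higher in MN1 total mRNA of A315T against GFP, beside 1.05% of all genes higher.

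Other mRNAs with known control of translation gave a scale for the ferritin values. The 5 stress genes translated through upstream open reading frames were all lower in MN1 footprints (median −0.67), and 4 of 5 were lower in neurons (median −0.70), beside 30.8% and 28.3% of all genes. Atf4, the stress-response factor among them, was lower by 0.67 (SE 0.107, adjusted p = 4.21e-05) in MN1 cells and differed by −0.35 (SE 0.187, adjusted p = 0.118) in neurons. Of the polyamine genes 3 of 8 were lower in MN1 cells (median −0.17), and 8 of 9 were lower and 1 higher in neurons (median −0.81), against the same shares of all genes and 28% higher in neurons. Odc1, the first enzyme of polyamine synthesis, was lower by 0.99 (SE 0.119, adjusted p = 1.79e-06) and by 0.34 (SE 0.139, adjusted p = 0.0461). Fth1 and Ftl1 lay below Atf4 and Odc1 in both cell types.

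The members' ratios were not uniformly alike across cultures. Over the 14 cultures, the log2 footprint-to-total ratios of Fth1 and Ftl1 had a Pearson r of 0.64, those of Tfrc and Ireb2 an r of 0.83 and those of Ireb2 and Slc11a2 an r of −0.59. Cultures share cell type, depth and library type, so these values are descriptions only. Among 8119 genes with a median of at least 10 counts in both library types, the closest to Fth1 were Gtpbp6, Uqcrfs1 and Mcrip1 (r of 0.92 each). The closest to Ftl1 were Tmem109 (0.95), Ist1 and Pdap1 (0.92 each), to Tfrc Nupl1 (0.91), Slc25a46 (0.89) and Pja2 (0.88), and to Ireb2 Pja2 (0.90), Ube2v2 (0.89) and Matr3 (0.88). For Slc11a2 they were Hdgf (0.90), Eif3f (0.89) and Max (0.88), and for Aco1 Rpa1 (0.86), Ccp110 and Smarcc2 (0.83 each). No member was among the 3 closest of another.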

How the data were processed

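The deposited files hold whole-number read counts per gene, 1 file per library, made by the authors from ribosome footprints or poly(A)-selected total RNA. Adapters were trimmed (cutadapt 1.8.1), non-coding RNA reads were removed (Bowtie2), and the rest were aligned (TopHat2) and counted over exons of the Ensembl GRCm38 annotation (featureCounts 1.4.4). Per the file headers, reads of a single genomic place were counted, reads over more than 1 gene were not, and no strand option was set, so antisense transcripts cannot be told apart. Tools and versions are from the submitters' processing notes. Counts were tested with edgeR 4.0.16 (quasi-likelihood test, TMM factors, filterByExpr with a minimum count of 10 and a minimum total of 15, Benjamini-Hochberg adjustment over all genes of the fit, threshold 0.05), and DESeq2 1.42.0 was an alternative. Protein groups were compared within a cell type and library type, the ratio by an interaction term, and cell types by group means. Footprints were set against total mRNA by a term for library type, adjusted for group. Outside the replicate block, the footprint and total mRNA libraries of a culture entered these fits and those of the ratio as independent. The SEs and p-values of these fits therefore leave out that pairing. SE is the size of the log2 difference over the root of F and intervals are 95% normal intervals from it. Levels are CPM on TMM factors over all 28 libraries. Fits were tested on simulated data. The members and lists were chosen with earlier results of these data known. All members were named, as was every measured gene of the other reported IRE mRNAs, and of the iron handling genes the 3 largest past the threshold in each direction per comparison, and any past it between protein groups. A few list genes are not reported here, and the counts leave them out. The most alike genes are the 3 with the highest Pearson r of log2 ratios with a pseudocount of 1. Same-numbered libraries of a cell type share a date in the labels and were taken as paired, except that 1 MN1 GFP footprint library has the day and month of replicate 1 with another year, taken as a slip. Their deviations from group means correlated with r of 0.273 to 0.532 among MN1 libraries and of −0.212 to 0.553 among neuron libraries. Gene models and hairpins came from the GENCODE M21 annotation of GRCm38. Of the 45513 genes listed, 44671 matched it.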

Additional observations from a re-analysis of the deposited data

Results flagged for a closer look

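A selection of genes from the compared lists is given here, with the log2 difference of neurons minus MN1 in the footprint-to-total ratio. Each differed between the cell types by a test of that difference with edgeR, and none is a member. Of the iron handling genes only the largest differences in each direction are named. Of the stress and polyamine genes only Atf4 and Odc1 were considered, so others that passed may be missing. Among other reported IRE mRNAs, App differed by 0.81 (SE 0.148, adjusted p = 0.00116). Among iron handling genes, Steap1 differed by 2.07 (SE 0.571, adjusted p = 0.0242), from at most 14 counts in a neuron total mRNA library, Mcoln1, an endolysosomal channel, by 0.80 (SE 0.222, adjusted p = 0.0257) and Hif1a by 0.67 (SE 0.2, adjusted p = 0.038). Odc1 differed by 0.77 (SE 0.217, adjusted p = 0.0261). The median difference over all genes was 0.2. Cycloheximide before lysis was given to MN1 cells only, so that cell type and this treatment cannot be told apart. The lysis buffer held the drug for both.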

How the results depend on the processing

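Counts of members past the threshold were recomputed with DESeq2, RLE factors, no filter on low counts, protein-coding genes only, ferritin copies added, the replicate block and each culture left out. The sets without the 2 cultures of highest Lars2 share were chosen after seeing the data. Of 288 recomputed counts, 282 stayed within 1.5 times the reported count and 6 did not. With the replicate block 2 members passed in MN1 total mRNA of A315T against GFP, and the pairing changed no other count of members. DESeq2 gave 3 members for footprints of neurons against MN1. Over left-out cultures the counts ran from 4 to 6 for footprints against total mRNA in either cell type, from 3 to 6 for footprints and 4 to 5 for total mRNA of neurons against MN1, and stayed at 0 for the ratio. Between protein groups they ran from 0 to 2 in MN1 total mRNA of A315T against GFP (without GFP replicate 2, Ireb2 −0.93, adjusted p = 0.00253, and Tfrc −0.62, adjusted p = 0.0392), from 0 to 1 in A315T against hTDP-43 (without hTDP-43 replicate 2, Ireb2 −0.87, adjusted p = 0.00397), from 0 to 2 in neuron total mRNA of A315T against non-transgenic, and were 0 in the other 15. A lone culture of a group was then assumed to vary like the rest.

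Of 574 values recomputed for single members in footprints against total mRNA and neurons against MN1, 522 kept direction and side of the threshold, 27 lost the call, 7 gained one and 18 changed sign. Those that changed sign were all neuron minus MN1 values. Between protein groups, 66 of 115 member values took both signs over the alternatives. All values that follow in this paragraph are neurons minus MN1. In total mRNA, Fth1 was 0.044 with no filter, 0.014 with protein-coding genes only and 0.333 without both cultures of highest Lars2 share. Over single left-out cultures it was −0.459 to 0.253, above 0 without non-transgenic replicate 3 or hTDP-43 replicate 3 (0.094). Ireb2 total mRNA was −0.005 without both cultures of highest Lars2 share and −0.105 to 0.166 over single ones, below 0 without replicate 2 of any MN1 group or replicate 1 of neuron A315T or hTDP-43. For the ratio, Slc40a1 was 0.336 with DESeq2 and −0.736 to 1.262 over single ones, above 0 without MN1 A315T replicate 1 or neuron hTDP-43 replicate 1. Aco1 was −0.036 with DESeq2, −0.044 with RLE factors and −0.104 (without MN1 hTDP-43 replicate 1) to 0.359 over single ones. Slc11a2 was −0.057 (without neuron hTDP-43 replicate 1) to 0.444. The cause was not tested. Depth limits Slc40a1, and Ftl1 and Slc11a2 in neurons, which fell to 3 footprint counts in a library.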

Other observations

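Aco1 had values of opposite sign in the 2 cell types when A315T was set against its control. In MN1 cells its log2 differences were 0.19 in total mRNA (SE 0.198, adjusted p = 0.894) and −0.37 in the ratio (SE 0.331, adjusted p = 1). In neurons they were −0.24 (SE 0.239, adjusted p = 1) and 0.41 (SE 0.334, adjusted p = 1). A test of that contrast across cell types with edgeR did not pass, at −0.49 for total mRNA (SE 0.322, adjusted p = 1) and 0.83 for the ratio (SE 0.515, adjusted p = 1). Of 60 such tests of members 0 passed and 5 had an unadjusted p below 0.05.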
